A study of Mus musculus with 12 samples.

Results

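The Zfp genes, named in mouse for their zinc finger proteins, were described in the N6-methyladenosine (m6A) peak lists of the hippocampus of WT and Tyrobp-/- mice. Members were all genes whose symbol is Zfp, a number and at most 1 letter, and 365 of the 17777 genes in the lists met this rule. They held 991 of 33622 peaks in the WT list and 1061 of 34935 peaks in the Tyrobp-/- list. A further 11 symbols that start with Zfp, such as Zfp36l1, Zfpm1 and pseudogenes, fall outside the rule.

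Tyrobp-/- mice carry a short TALEN deletion in exon 2 of Tyrobp, a signalling adaptor of microglia, in every cell of the body. The founders were bred with C57BL/6 mice, and their mutant offspring were inbred. WT littermates were the controls, and male mice aged 6 months were used in both groups. In m6A immunoprecipitation followed by sequencing (MeRIP-seq), fragmented RNA is pulled down with an antibody against m6A (IP) and sequenced beside the untreated RNA (input). Each genotype had 3 samples, each pooled from 3 mice, and both an IP and an input library were made of every sample (12 libraries).

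A zinc finger of the C2H2 type is a short fold held by a zinc ion, and proteins with arrays of such fingers mostly bind DNA in a sequence-specific manner. Many Zfp genes also encode a KRAB domain, which recruits the corepressor TRIM28 and silences transposable elements. KRAB zinc finger genes lie in clusters that grew by duplication, and their last exon usually encodes the whole finger array and the 3′ UTR. m6A is deposited on mRNA mainly at long internal exons, near the stop codon and in the 3′ UTR, where reader proteins affect the stability and translation of the transcript.

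The libraries held between 61189368 and 73554506 valid reads. Peaks were called on the 3 replicates of a genotype together, so each peak has 1 fold enrichment (IP over input) per genotype, no replicate error can be given and no test between genotypes is possible. The intervals below cover counting error only, and peaks of 1 gene are not independent. Markers of hippocampal neurons had a peak in both lists for 8 of 8 genes, those of microglia for 4 of 5 (none for Trem2), those of astrocytes for 3 of 3 and those of oligodendrocytes for 3 of 3. Of 4 markers of the hypothalamus, 2 had a peak in the WT list and 0 in the Tyrobp-/- list. Hcrt and Pmch had no peak in either list, and the authors place both among the top upregulated genes of Tyrobp-/- mice. The part of neighbouring tissue of either genotype in the values below was not tested. Tyrobp itself had 0 peaks in both lists.

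The m6A motif is commonly centred on GGAC, most often read as GGACT on the DNA strand of the transcript. It was searched on the transcript strand of the first 50 bases after the annotated start of each gene, where RefSeq sequence (GRCm38.p6) was given for 301 of the 365 genes. The 401 start windows of Zfp symbols held GGAC in 16.5% (95% interval 13.0 to 20.5), against 18.9% of all 32851 windows. GGACT, a subset of GGAC, was found in 4.24% of Zfp windows and 5.76% of all windows. Peaks covered the whole window at 45 Zfp starts in the WT list (11.2%, against 5.23% of all windows) and at 47 in the Tyrobp-/- list (11.7%, against 5.13%). GGAC stood in 20.0% of the Zfp windows covered in WT (9.58 to 34.6), in 23.4% of those covered in Tyrobp-/- mice (12.3 to 38.0) and in 15.8% of those covered in neither (12.1 to 20.2), so these intervals overlapped. The 4 covered Zfp windows with GGACT are shown because they are the starts where both a peak and the longer motif can be read; capitals mark the motif and sequences run 5′ to 3′ on the transcript strand.
Zfp772: gctgggcgGGACTttcggctt
Zfp1: agctccgaGGACTctgggaac
Zfp458: agGGACTgtgcagggtggcgg
Zfp85: gctagacaGGACTctgctctc

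The Zfp772 site lies at chr7:7209974-7209994 on the reverse strand, under a peak with a fold enrichment of 8.36 in WT and 5.44 in Tyrobp-/- mice. The Zfp1 site lies at chr8:111643447-111643467 on the forward strand, under a WT peak of 15.4. The Tyrobp-/- peak of 17.8 there began inside the window, at position 111643461, which is past the motif. The Zfp458 site lies at chr13:67268974-67268994 on the reverse strand, under peaks of 9.88 in WT and 5.02 in Tyrobp-/- mice. At the Zfp85 site, chr13:67755160-67755180 on the reverse strand, the enrichments were close to each other, at 10.3 and 10.6. A match shows only that these letters lie under the peak, at Zfp1 under the WT peak alone.

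Nearly every Zfp gene carried m6A peaks in this tissue, and most carried several. Of 394 protein-coding Zfp symbols in RefSeq, 359 had a peak in at least 1 list (91.1%, 87.9 to 93.7), against 61.4% of the other protein-coding symbols. A peak can be called only where a transcript has reads, and the level of expression behind this difference was not tested. In the WT list, 351 Zfp genes had peaks, with a mean of 2.82 per gene against 2.11 in other genes, and in the Tyrobp-/- list 361 had peaks, with 2.94 against 2.14. In WT 50.7% of Zfp genes had 3 or more peaks (45.4 to 56.1), against 27.5% of other genes, and in Tyrobp-/- mice 52.1% (46.8 to 57.3), against 28.3%. Some peaks overlapped another listed peak of the same gene, 6.56% and 6.41% of Zfp peaks against 7.34% and 6.90% of other peaks. With such peaks joined, Zfp genes still had 2.64 and 2.75 peaks per gene, against 1.96 and 2.00.

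By listed peaks Zfp532 led, with 13 in WT and 11 in Tyrobp-/- mice, followed by Zfp407 with 12 and 11, Zfp142 with 12 and 7, and Zfp935 with 10 and 9. Zfp617 with 6 and 12 and Zfp697 with 8 and 10 were equal in their sum. The order turned after overlapping peaks were joined, when Zfp407 led with 11 and 10, followed by Zfp697 with 8 and 10 and Zfp532 with 8 and 9. Zfp617 then had 2 separate stretches in WT against 9 in Tyrobp-/- mice, with a highest enrichment of 7.53 and 10.

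Zfp peaks were wide, with a median exonic width of 420 bp in the WT and 391 bp in the Tyrobp-/- list, where other genes gave 319 and 300 bp. Their fold enrichment had a median of 6.10 in WT (5.79 to 6.59), with quartiles of 3.2 and 10, against 5.53 in other genes. In Tyrobp-/- mice the median was 6.11 (5.72 to 6.63), with quartiles of 3.24 and 10.5, against 5.72. A peak-calling FDR below 1e-5 was reached by 71.6% of WT and 69.1% of Tyrobp-/- Zfp peaks, where other genes gave 64.2% and 63.1%.

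**Figure D1:**
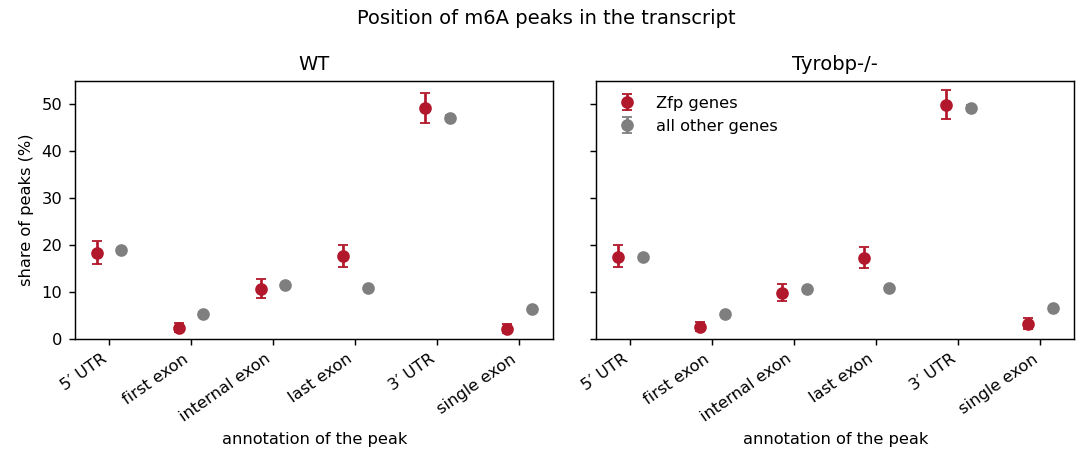
Share of peaks (%) by their annotation in the transcript, for Zfp genes and all other genes, in the WT and the Tyrobp-/- list. Bars are exact 95% binomial intervals, and in both lists the last exon holds more of the Zfp peaks (17.6% and 17.2%) than of the other peaks (10.9% and 10.8%).

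The 3′ UTR was the largest class of Zfp peaks, as it was in other genes, and over all listed peaks the last exon held a larger share of Zfp peaks than of other peaks. The 3′ UTR held 49.2% of Zfp peaks in WT (46.1 to 52.4), against 47.2% of other peaks, and 50.0% in Tyrobp-/- mice (46.9 to 53.0), against 49.3%. The 5′ UTR held 18.3% and 17.5%, against 18.9% and 17.3%. The last exon outside the UTR, where the finger array is encoded in many of these genes, held 17.6% of Zfp peaks in WT (15.2 to 20.1), against 10.9% of other peaks, and 17.2% in Tyrobp-/- mice (15.0 to 19.7), against 10.8%. First exons held 2.22% and 2.45% of Zfp peaks against 5.36% and 5.20%, and transcripts with a single exon 2.12% and 3.11% against 6.33% and 6.62%. Of these single-exon Zfp peaks, 10 of 21 in WT and 15 of 33 in Tyrobp-/- mice lay on the model of the Zfp gene itself. With a peak-calling FDR below 1e-5, the last exon held 13.9% and 16.5% of Zfp peaks and 6.28% and 6.08% of other peaks. With only the peak of lowest p of each gene, the last exon held 9.12% and 8.59% of Zfp peaks, against 8.81% and 8.61% of those of other genes, and the 3′ UTR held 65.2% and 70.1%, against 57.0% and 59.7%. With a fold enrichment of at least 4 the last exon held 12.7% and 14.8%, against 12.3% and 12.4%. Of the Zfp peaks annotated to exons outside UTRs, 33 in WT and 41 in Tyrobp-/- mice were annotated on the transcript of another gene model. UTR annotations name no gene model, so the number among UTR peaks is unknown. The lists give no strand for a peak, so overlapping genes cannot be told apart. Wide peaks can span several classes but are filed under a single class. Nearly the same stretch of Zfp24 was filed under the 5′ UTR in WT and the 3′ UTR in Tyrobp-/- mice. At Zfp189 a WT peak of 2352 exonic bp, filed under the 5′ UTR, overlapped a Tyrobp-/- last-exon peak of 685 bp. The UTR classes may thus include coding sequence, and how much was not tested.

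**Figure D2:**
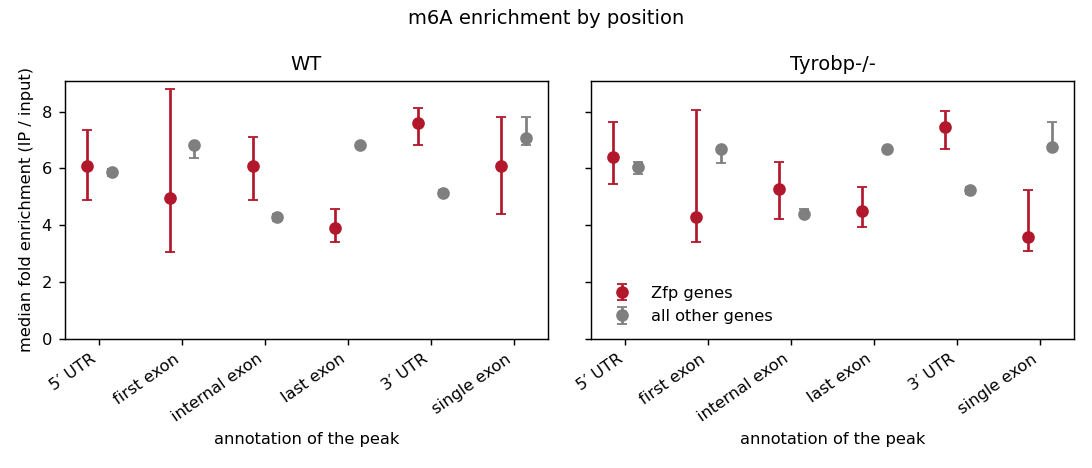
Median fold enrichment (IP over input) of peaks by annotation, for Zfp genes and all other genes, in each list. Bars are 95% order-statistic intervals of the median, and Zfp peaks are above other peaks in the 3′ UTR (7.61 against 5.13 in WT) and below them in the last exon (3.89 against 6.84 in WT).

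Enrichment was unequal between these classes, and over all listed peaks the order of the class medians was opposite to that in other genes. In the 3′ UTR the median fold enrichment of Zfp peaks was 7.61 in WT (6.84 to 8.11), against 5.13 in other genes, and 7.47 in Tyrobp-/- mice (6.67 to 8.03), against 5.24. In the last exon it was 3.89 in WT (3.42 to 4.56), against 6.84, and 4.50 in Tyrobp-/- mice (3.92 to 5.33), against 6.67. The zinc finger families Zbtb and Zscan with Zkscan had the same order as Zfp genes. Zbtb medians were 7.81 in the 3′ UTR and 5.14 in the last exon in WT, and 7.655 and 2.59 in Tyrobp-/- mice. Zscan and Zkscan medians were 8.20 and 3.98 in WT, and 9.05 and 3.71 in Tyrobp-/- mice. Their last-exon medians rest on between 5 and 9 peaks each. Other genes had the same order as Zfp genes at a fold enrichment of at least 4, with 8.14 in the 3′ UTR and 7.81 in the last exon in WT and 8.19 and 7.94 in Tyrobp-/- mice, where Zfp genes had 9.77 and 6.84, and 9.53 and 6.67. Within genes, the highest peak of the 3′ UTR was compared with the highest of the last exon, without peaks known to lie on another gene model. The 3′ UTR was above the last exon more often than below it, both in Zfp genes and in other genes. The number and width of the peaks behind each highest value were not adjusted for. Wide peaks filed under the 3′ UTR may include coding sequence, so these medians and ratios compare annotation classes rather than exact positions. Of 87 Zfp genes with a peak in both places in WT, 71 had the higher one in the 3′ UTR (81.6%, 71.9 to 89.1), with a median ratio of 1.93, against 58.2% of other genes with a median of 1.31. In Tyrobp-/- mice this was so for 75 of 105 Zfp genes (71.4%, 61.8 to 79.8), with a median ratio of 1.68, against 62.1% and 1.33, so the Zfp interval there reached down to the value of other genes.

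Fold enrichments below 10 often lay on steps, most of all among weak peaks. Values of 10 or more, such as the highest enrichments and many values behind the largest ratios named below, were not checked for steps. Below a fold enrichment of 10, 20.5% of other peaks in WT and 21.4% in Tyrobp-/- mice were whole multiples of 0.977 and 0.953 (within 0.005), where rounding alone would give about 1.02% and 1.05%. Among Zfp peaks 13.0% and 15.4% were such multiples, 27.0% and 31.4% of those with an FDR not below 1e-5 but 5.41% and 6.12% of the rest. Without such peaks the last-exon median of other genes was 5.37 in WT and 5.82 in Tyrobp-/- mice, and that of Zfp genes 3.65 and 4.25, so the Zfp value remained lower. With an FDR below 1e-5 the medians were 4.70 and 5.21 for Zfp genes, against 6.18 and 6.67. The 3′ UTR medians were then 8.48 and 8.95 for Zfp genes, against 5.32 and 5.46.

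Among peaks with an FDR below 1e-5, the highest enrichments of Zfp genes lay on several chromosomes and in different transcript regions. In WT they were 89.8 in the last exon of Zfp976 on chromosome 7 (42609526 to 42610453, GRCm38), 75.2 at Zfp961, 65.4 in the 3′ UTR of Zfp456, 64.5 in the 5′ UTR of Zfp768 and 50.2 in the 3′ UTR of Zfp821. The Zfp961 peak lies in the single exon of another gene model, on chromosome 8 from 71986765 to 71987153. The overlapping Tyrobp-/- peaks had values of 34.3 at Zfp976, over exactly the same stretch, 83.4 at Zfp961, 15.2 at Zfp768 and 36.6 at Zfp821, so the peak at Zfp961 was the highest in Tyrobp-/- mice. The Zfp456 peak overlapped a Tyrobp-/- peak of 7.50. The next in Tyrobp-/- mice were 61.7 in the 3′ UTR of Zfp326, which encodes a subunit of the DBIRD complex that couples transcription to splicing (42.7 in WT), 47.8 in that of Zfp777 (25.7 in WT), 45.7 in that of Zfp951 (12.2 in WT) and 44.8 both in the 5′ UTR of Zfp358 (13.7 in WT) and in the 3′ UTR of Zfp738 (23.4 in WT).

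**Figure D3:**
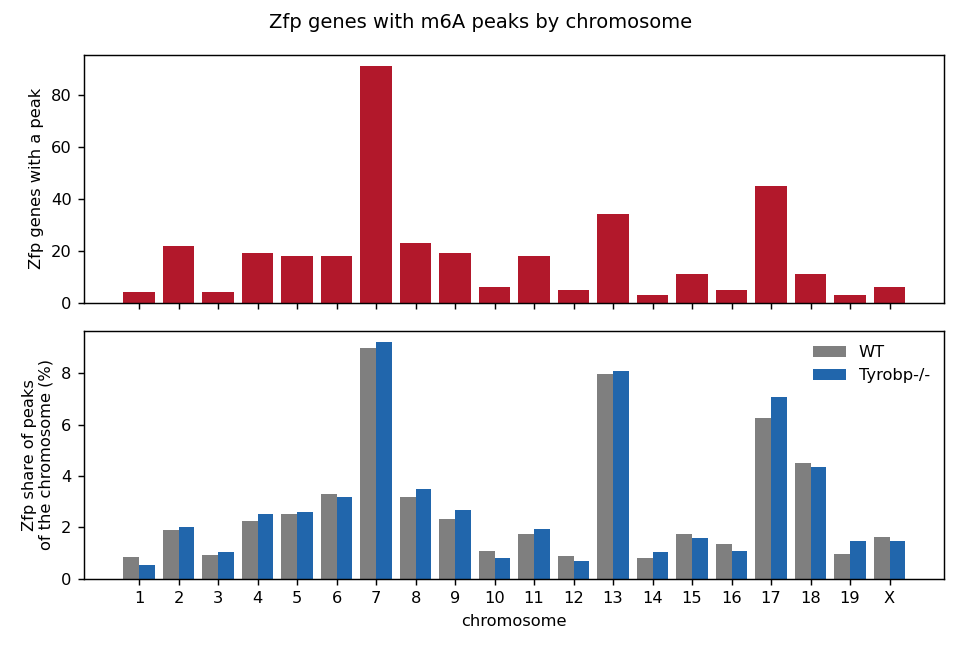
Number of Zfp genes with a peak in either list (upper panel) and Zfp share of all peaks of each chromosome in percent (lower panel, WT and Tyrobp-/-). Chromosomes 7, 17 and 13 stand out, with 91, 45 and 34 genes.

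The genes were unevenly placed. Chromosome 7 held 91 of the 365 genes (24.9%), chromosome 17 held 45 and chromosome 13 held 34. Zfp peaks made up 8.98% of all WT peaks and 9.21% of all Tyrobp-/- peaks on chromosome 7, 7.99% and 8.10% on chromosome 13, and 6.27% and 7.07% on chromosome 17. Of the genes with a known position, 225 lay within 200 kb of another Zfp gene and 137 farther away, a distance chosen after the values were seen. The last exon held 22.1% of peaks of the clustered genes in WT (18.8 to 25.7) and 10.7% of those of the others (7.83 to 14.2). In Tyrobp-/- mice the shares were 19.9% (16.9 to 23.3) and 12.5% (9.53 to 16.1). Clustered copies can be near-identical in sequence, so reads and peaks may be split between copies, and their values are less certain.

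The same Zfp genes were found in both genotypes. Of the 365 genes, 347 had a peak in both lists (95.1%), against 79.6% of other genes with a peak. The 4 genes with peaks in the WT list alone were Zfp345, Zfp706, Zfp965 and Zfp982, with a highest enrichment between 3.03 and 6.84. The 14 genes with peaks in the Tyrobp-/- list alone had values between 1.80 at Zfp512 and Zfp931 and 16 at Zfp791. At Zfp791 the WT list has an enrichment of 14 over the same stretch of chromosome 8, filed under Gm23388, so both lists hold a peak there under different gene labels.

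At the level of peaks, 837 WT Zfp peaks overlapped a peak of the same gene in the Tyrobp-/- list (84.5%, 82.1 to 86.7), against 77.8% of other peaks. In the other direction 874 did so (82.4%, 79.9 to 84.6), against 75.6%. The 154 WT and 187 Tyrobp-/- Zfp peaks without a partner were weak and narrow. Their median fold enrichment was 3.15 and 3.27, against 6.70 and 6.59 for those with a partner, and their median exonic width was 150 bp in both lists, against 535 and 509 bp. In other genes the median enrichment of peaks without a partner was 4.71 and 4.45, and their median width 151 bp in both lists. A peak-calling FDR below 1e-5 was reached by 33 and 34 of the Zfp peaks without a partner (21.4% and 18.2%), against 23.1% and 23.7% in other genes.

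Among these strong peaks without a partner, 11 of 33 in WT (33.3%) and 8 of 34 in Tyrobp-/- mice (23.5%) were covered in the other list by a peak filed under another gene. In other genes this was so for 357 of 1676 (21.3%) and 394 of 1957 (20.1%). The clearest case was a stretch of chromosome 6, listed from 47949923 to 47952732 under Zfp783 in WT, at 11.3, and from 47949002 to 47953390 under Zfp956 in Tyrobp-/- mice, at 20.4. Zfp276 in WT, at 13, had its counterpart under Fanca in Tyrobp-/- mice, at 11.3. Zfp523 in WT, at 22, had its counterpart under AC126937, at 8.10, and Zfp286 in WT, at 9.77, under Gm10428, at 30.5. The Tyrobp-/- peak of Zfp536, a repressor of neuronal differentiation, at 9.96, was covered in WT by a peak of Gm44882, at 14.6. Strong peaks with no counterpart under any gene were led by Zfp648 in WT, at 23.4, and by Zfp52 and Zfp462 in Tyrobp-/- mice, both at 9.53.

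**Figure D4:**
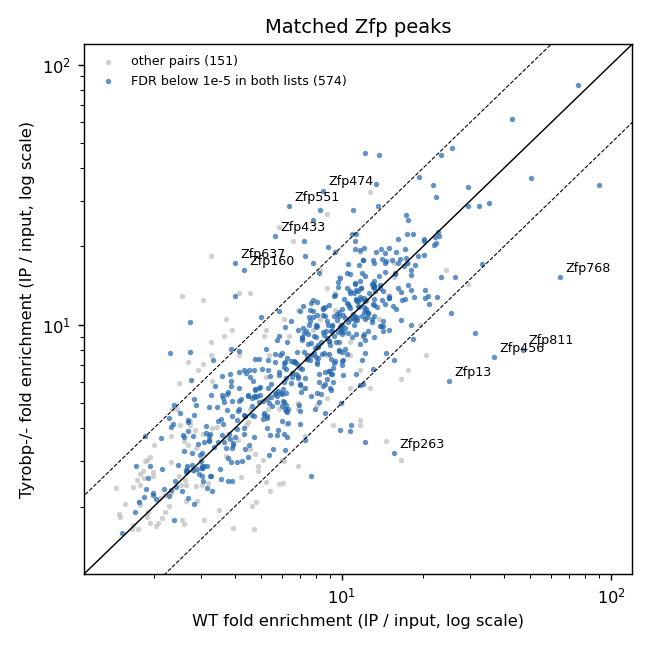
Fold enrichment (IP over input, log scale on both axes) of 725 matched Zfp peaks in WT and Tyrobp-/- mice, each point 1 pair, with the solid line at equal values and dashed lines at a ratio of 2. Most pairs lie between the dashed lines, 47 lie at or above the upper one and 37 at or below the lower one, and the 10 genes named in the text are labelled.

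The comparison of genotypes asked whether m6A enrichment of Zfp transcripts differed in mice without Tyrobp. It was made at 725 pairs of peaks in 342 Zfp genes that were each other's largest overlap. Tyrobp-/- mice had the higher value in 385 pairs (53.1%), WT in 334, and 6 were equal. The median log2 ratio of Tyrobp-/- over WT was 0.03 (0 to 0.08), against 0.05 over all 23143 pairs, and the SD over Zfp pairs was 0.66. A ratio of at least 2 was reached upwards by 47 pairs (6.48%, 4.80 to 8.53) where all genes gave 7.13%, downwards by 37 (5.10%, 3.62 to 6.97) where all genes gave 6.27%, and in either direction by 84 (11.6%) where all genes gave 13.4%. The Zfp shares were thus near the background, and none of these ratios has a replicate error. Fold enrichment is a ratio of IP to input within a genotype, so these ratios do not measure the total amount of m6A. By other assays, the authors reported a lower m6A level in the hippocampus of Tyrobp-/- mice at this age.

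Large ratios were more frequent among weak peaks. With an FDR below 1e-5 in both lists, 45 of 574 Zfp pairs passed a ratio of 2 (7.84%, 28 upwards and 17 downwards), against 8.20% over all genes. Of the other 151 pairs, 39 did so (25.8%), against 28.0% of such pairs in other genes. By position, the share of Zfp pairs past a ratio of 2 was 11.1% in the 3′ UTR, where other genes gave 9.14%, and 10.9% in the last exon, where they gave 21.9%. It was 13.7% in the 5′ UTR, against 17.9%, and 9.33% in internal exons, against 11.4%.

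Among pairs with an FDR below 1e-5 in both lists, the lowest ratio was in the 3′ UTR of Zfp811 on chromosome 17, where enrichment was 46.9 in WT and 8.03 in Tyrobp-/- mice (log2 ratio -2.55). The WT peak was wider there, with 2181 exonic bp against 1046. Zfp456 on chromosome 13 followed with 36.6 and 7.50 (-2.29) in its 3′ UTR, over nearly equal widths of 300 and 330 bp. Other peaks of Zfp456 went the other way, with 11 in WT and 27.6 in Tyrobp-/- mice (1.33) and with 5.86 and 23.8 (2.02), the latter with a WT peak that did not reach an FDR of 1e-5. The 5′ UTR of Zfp263 on chromosome 16 had 15.6 and 3.21 (-2.28), that of Zfp768 on chromosome 7 had 64.5 and 15.2 (-2.09), and Zfp13 on chromosome 17 had 25 and 6.06 (-2.04), with 1461 exonic bp in WT against 686.

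Over all pairs the highest ratio was at Zfp248, with 3.26 in WT and 18.4 in Tyrobp-/- mice (2.50), where the WT peak did not reach an FDR of 1e-5. Among pairs with an FDR below 1e-5 in both lists, the highest ratio was in the 5′ UTR of Zfp551 on chromosome 7, with 6.35 in WT and 28.6 in Tyrobp-/- mice (2.17). Zfp637 on chromosome 6 had 4.01 and 17.2 (2.10) over an identical stretch of its 5′ UTR, so the width of the peak did not differ there. The 3′ UTR of Zfp433 on chromosome 10 had 5.62 and 21.9 (1.96), that of Zfp474 on chromosome 18 had 8.48 and 32.7 (1.95), and that of Zfp160 on chromosome 17 had 4.31 and 16.2 (1.91). The Zfp160 peak was 181 exonic bp wide in WT and 481 bp in Tyrobp-/- mice.

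Genes with a known role were grouped in 4 lists, which were drawn up with earlier results of these data known. All 6 genes of imprint and retroelement silencing had peaks in both lists. Zfp57, which keeps methylation at imprinted loci, had its strongest 3′ UTR peak at 21.8 in WT and 34.3 in Tyrobp-/- mice. Zfp809, which recognises retroviral primer binding sites, had values of 18.1 and 17.3, and Zfp445, a second guardian of imprints, 8.16 and 8.22. Over 13 pairs of this list the median log2 ratio was 0.15, with 0 pairs past a ratio of 2 in either direction, where all genes gave 13.4%.

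All 13 genes of neural development had peaks in both lists, and 40 pairs gave a median log2 ratio of -0.11. Tyrobp-/- mice had the higher value in 13 of these pairs, against 53.6% of the pairs of all genes. A ratio of 2 was passed by 1 pair, where all genes gave 13.4%. It was an internal exon of Zfp407 with 7.65 in WT and 2.61 in Tyrobp-/- mice (-1.55), 301 and 61 bp wide. All 8 pairs of Zfp407 were lower in Tyrobp-/- mice, with log2 ratios between -1.55 and -0.04, and so were all 6 of Zfp462, between -0.77 and -0.01. Zfp462, a chromatin factor needed in brain development, had a strongest peak of 22.9 in WT and 21.9 in Tyrobp-/- mice, and Zfp521, a factor of early neural fate, of 16.1 and 13.8. Zfp804a, the mouse counterpart of a gene linked to schizophrenia, had 1 matched pair with a log2 ratio of 0.02.

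All 12 genes that act on RNA, ribosomes or ubiquitin had peaks, with a median log2 ratio of -0.11 over 21 pairs. Of these pairs 0 passed a ratio of 2, where all genes gave 13.4%. Zfp36, or tristetraprolin, which destabilises AU-rich mRNA, had its strongest peak at 14.6 in WT and 17.6 in Tyrobp-/- mice. Zfp638, an RNA-binding protein, had 32.2 and 28.6, while Zfp598, which marks collided ribosomes with ubiquitin, had weak peaks of 1.85 and 2.99. Of the 7 pluripotency genes, Zfp42 (Rex1) had no peak and Zfp706 a single one, in WT. The 7 pairs of the pluripotency list had a median log2 ratio of -0.45. Of these pairs 2 passed a ratio of 2, both in Zfp296, where all genes gave 13.4%. Zfp296 had 31.3 in WT and 9.29 in Tyrobp-/- mice in its 3′ UTR (-1.75), and 14.6 and 3.57 in its 5′ UTR (-2.03).

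**Figure D5:**
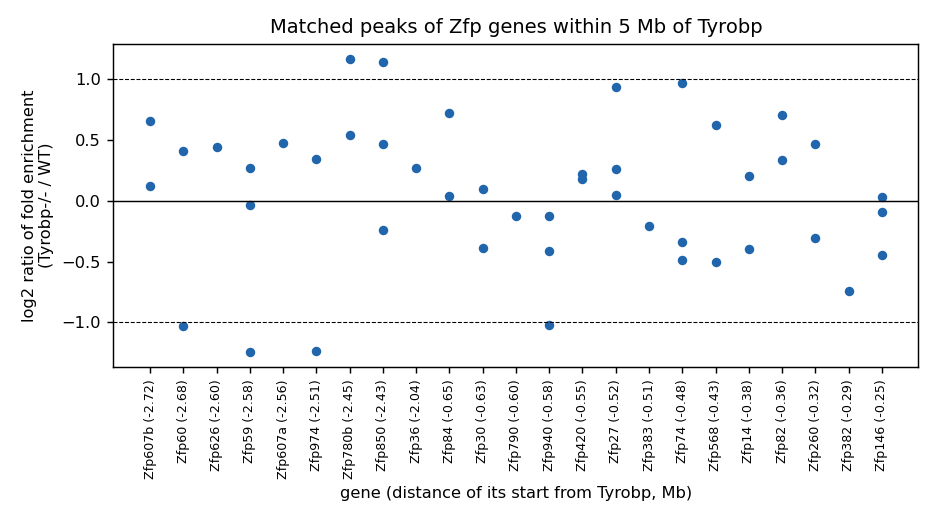
Log2 ratio of fold enrichment (Tyrobp-/- over WT) of the 46 matched peaks of the 23 Zfp genes whose start lies within 5 Mb of Tyrobp, ordered by distance in Mb (each point 1 pair, dashed lines at a ratio of 2). Values scatter on both sides of 0, with 2 pairs at or above the upper and 4 at or below the lower line.

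Tyrobp lies on chromosome 7 (30413782 to 30417582, GRCm38.p6) beside a cluster of Zfp genes, so these are the members nearest to the edited gene. Within 5 Mb of its start lay 23 Zfp genes, all on 1 side, between 2.72 and 0.25 Mb away. They had 61 WT and 74 Tyrobp-/- peaks. Their 46 pairs had a median log2 ratio of 0.11 (SD 0.58, between -1.24 and 1.17), against -0.04 over the 135 pairs of the other Zfp genes on chromosome 7 and 0.02 over the 679 pairs of all other Zfp genes. A ratio of 2 was passed by 2 pairs upwards and 4 downwards (13.0%), near the 13.4% over the pairs of all genes. The share was 8.15% of the other Zfp pairs on chromosome 7 and 11.5% of all other Zfp pairs. The pairs past it were in Zfp780b (1.17) and Zfp850 (1.14) upwards and in Zfp59 (-1.24), Zfp974 (-1.23), Zfp60 (-1.03) and Zfp940 (-1.02) downwards. Zfp27 had the highest peak of this stretch in Tyrobp-/- mice, with 36.9 against 19.3 in WT (0.94), and Zfp146, the nearest to Tyrobp, had 3 pairs with ratios between -0.45 and 0.03.

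The deposited comparison of genotypes lists 151 Zfp peaks of 5640 (2.68%) in 118 genes, all of which also had peaks in the WT or Tyrobp-/- list. Of these Zfp peaks 59.6% (51.3 to 67.5) lay in the 3′ UTR, against 53.1% of the other listed peaks, and 15.2% (9.91 to 22.0) in the last exon, against 9.44%.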

How the data were processed

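Members and gene lists were chosen with earlier results of these data known. The authors trimmed reads with fastp, mapped them with HISAT2 to Ensembl v96 (GRCm38), called peaks with exomePeak over the 3 pooled replicates per genotype, and used ChIPseeker for annotation. Per library, the authors deposited read counts and the percent of bases at Q30 and of G or C. For each peak the authors deposited a p-value (in the score column), log10 of its FDR as a further score, and fold enrichment, a ratio of IP to input. The deposited comparison of genotypes holds the authors' own log2 fold changes, p-values and log10 FDR, which were not used, and its peaks were only counted by position.

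Peaks of the same gene counted as matched if their spans shared 1 bp or more, and ratios were taken at peaks that were each other's largest overlap. Shares have exact Clopper-Pearson 95% intervals and medians order-statistic intervals. The last exon means the last of several, outside annotated UTRs. A whole multiple was taken as within 0.005 of the step, at fold enrichments below 10 only.

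Named were the 5 genes with most peaks, the 5 highest peaks of each list, the 5 highest and lowest ratios and the 5 highest unmatched peaks (each with a peak-calling FDR below 1e-5), genes within 5 Mb of Tyrobp, and the listed genes. Others were named after their values were seen. Finger counts and motifs inside peaks were planned but not made, since proteins and genome sequence were not used here. Of the 365 genes, 362 matched RefSeq by symbol. Simulated lists were used to check the matching. Tables were handled with pandas 2.3.3 and numpy 2.4.6 in Python 3.11.15, intervals came from scipy 1.17.1, and figures from matplotlib 3.10.9.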

Additional observations from a re-analysis of the deposited data

How the results depend on the processing

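The files hold 1 value per peak over 3 pooled replicates, which bounds every comparison of genotypes here. No paired analysis was possible because each peak has 1 value per genotype over its 3 replicates, and leaving out a replicate was not possible for the same reason. The read depth behind a single peak is unknown. Of 79 values computed under other settings, 49 stayed within their interval (for counts, within 1.5 times) and 30 moved. Alternatives on joined peaks, own gene models, whole multiples, partners of any gene and equal widths were chosen after seeing the data.

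With a fold enrichment of at least 4, the WT list held 654 Zfp peaks, the 3′ UTR share was 54.6% in WT and 54.7% in Tyrobp-/- mice, and the last-exon share 12.7% and 14.8%. With 1 peak per gene, the shares in WT and Tyrobp-/- mice were 65.2% and 70.1% in the 3′ UTR, 9.12% and 8.59% in the last exon and 14.2% and 11.6% in the 5′ UTR, and the median fold enrichment was 9.81 and 10.2. With an FDR below 1e-5, the 3′ UTR share was 55.4% and 55.5%, the last-exon share 13.9% in WT, the 5′ UTR share 14.6% in Tyrobp-/- mice, the median fold enrichment 7.32 and 7.24, and the share of peaks with a partner 90.1% and 91.0%. A reciprocal overlap of 50% gave a partner to 61.6% of WT and 57.8% of Tyrobp-/- Zfp peaks. A ratio of 1.5 was passed by 118 pairs upwards and 89 downwards, against 16.2% and 13.4% of all pairs, where Zfp pairs gave 16.3% and 12.3%. With an FDR below 1e-5 in both lists 28 pairs upwards and 17 downwards passed a ratio of 2 (4.88% and 2.96%), where all genes gave 4.63% and 3.57%. With exonic widths within 1.5 times of each other 24 and 20 did (4.43% and 3.69%), against 4.63% and 3.99%. Centred on the median of all genes, the median log2 ratio of Zfp pairs was -0.014, with 42 pairs past a ratio of 2 in each direction (5.79%). All genes then gave 6.53% upwards and 6.75% downwards. Centring moves every ratio by 1 constant, the other settings keep fewer peaks or apply another overlap or ratio threshold by construction, and other causes were not tested.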
